A study of Mus musculus with 35 samples.

Results

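The comparison described here set full-length G-NHA9 against the empty vector in 10 of the 35 RNA-seq libraries of the series, the 5 labelled as the full-length fusion and the 5 labelled as empty vector. The libraries were chosen by these labels alone, with no measured value, and all genes counted were considered. NUP98–HOXA9 is a leukemia fusion of a nucleoporin with a homeodomain transcription factor, and G-NHA9 is the same protein tagged with mEGFP. The study introduced the fusion and its mutants into hematopoietic stem and progenitor cells (HSPCs) to learn how the phenylalanine-glycine motifs of NUP98 bear on puncta formation and gene expression. The cells were lineage-negative bone marrow cells of male and female C57Bl/6 mice. They were transduced with lentivirus and sorted for mCherry in the empty vector, and for mCherry and mEGFP in G-NHA9. All of them then grew for 1 week in Methocult M3434, a semisolid medium with growth factors for myeloid and erythroid cells, with GM-CSF added, and RNA was taken at this first plating. By the labels, the mice were 8 weeks old for empty vector replicates 1 to 3 and for G-NHA9 replicates 2 to 5, 9 weeks for empty vector replicate 4, 10 weeks for empty vector replicate 5 and 11 weeks for G-NHA9 replicate 1, and 8 weeks for all G-NHA9–8FA and G-NHA9Midi libraries. The labels do not say how many mice a library came from. The model has an ectopic, tagged fusion in a sorted culture of mixed cells that can mature along several lineages while they grow. G-NHA9–8FA, in which 8 phenylalanines were changed to alanine, and the truncated G-NHA9Midi, which lacks the Gle2-binding sequence, were set beside G-NHA9 to show which groups of genes differed from them and which were not called.

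HOXA9 is active in stem and progenitor cells and is turned down as blood cells mature. In mice, fusions that hold the HOXA9 homeodomain in the cell keep progenitors dividing in culture and delay myeloid maturation. Granulocytes are built in steps: azurophil (primary) granule proteases are made by promyelocytes, secondary granule and surface proteins come later, while mast cells, basophils, eosinophils, megakaryocytes and macrophages each carry granule, receptor or scavenger genes of their own.

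Total counts were between 31559914 and 48480625 in the empty vector and between 34641407 and 45464263 in G-NHA9, so that 3 counts, the limit that a count of 0 allows, correspond to 0.0635 to 0.0996 CPM. CPM are counts brought to a common library size, scaled here by TMM, a factor that corrects for a few abundant genes taking up counts. This factor was 0.899 to 0.955 in the empty vector and 0.99 to 1.11 in G-NHA9, and the 10 most abundant genes held 12.4% to 15.4% and 10.1% to 11.5% of the counts. All 10 libraries held both *Xist* and Y-linked transcripts, and no pair of libraries of 1 condition was alike within sampling noise. G-NHA9 replicate 5 was least like the others of its condition, with a mean correlation of log2 CPM of 0.978. *Hoxa9*, on which reads from the construct can also land, was at 1.08, 1.26, 0.693, 0.83 and 1.01 CPM in empty vector replicates 1 to 5 and at 108, 113, 96.5, 85.8 and 79.3 CPM in G-NHA9. *Nup98*, the other part of the fusion, to which the same applies, was at 129 ± 12.5 CPM (SD, n = 5) and 171 ± 27 CPM. Every G-NHA9 library lay above every control for both genes.

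Of 17166 genes tested, 2894 (16.9%) were higher and 2617 (15.2%) were lower in G-NHA9 at an adjusted p under 0.05 by the quasi-likelihood test of edgeR after Benjamini-Hochberg adjustment, the source of every adjusted p below. The median log2 fold change over all genes tested was 0.01, and 3456 genes (20.1%) did not overlap between the 10 libraries. The balance of directions rests on the scaling. Without TMM, 5007 genes were higher and 1636 lower, the share of higher genes went from 52.5% to 75.4%, and the median log2 fold change of all genes was 0.19. Changes are therefore relative to the bulk of genes in these libraries. Among 756 members of the lists and families below and named genes that passed the test, *Snx17* alone turned direction without TMM, and 94 no longer passed. In the libraries labelled 8 weeks (3 empty vector and 4 G-NHA9), 192 no longer passed, with fewer libraries to test. In a bulk sample, fewer cells of a type and less RNA per cell cannot be told apart. The paper describes cells isolated in parallel and transduced in triplicate with each virus, whereas the series holds 5 libraries per condition. Whether these 5 are separate cultures or animals is not given. The p-values rest on the spread between libraries within conditions, estimated over all 35 libraries.

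*Crisp3*, *Fbn1*, *Il2ra*, *Lepr* and *Myl10* rose most, and *Arnt2* and mast cell proteases fell most, among genes past the test with a mean of at least 5 CPM and no overlap between conditions. By these 2 limits and outside the *Hox* clusters, *Meis1*, *Pbx3* and ribosomal protein genes, 1067 genes were higher and 1114 were lower, and the 15 at each end are described. *Crisp3* encodes a secreted cysteine-rich protein stored in neutrophil granules and lies on chromosome 17 (40221777 to 40242288, minus strand, GRCm38). It was at 1.75, 0.115, 0.139, 0.0996 and 0.0306 CPM in empty vector replicates 1 to 5 and at 46.4, 46.4, 46.4, 31.5 and 31.9 CPM in G-NHA9 (log2 fold change 6.49, SE 0.59, adjusted p = 3.1e-10). Empty vector replicate 1 stood above the other 4 controls, and without it the log2 fold change was 8.62. *Fbn1*, which encodes the microfibril protein fibrillin-1, was at 0.185 to 0.504 CPM in the empty vector and at 14.2, 16.7, 12.8, 12.2 and 15.1 CPM in G-NHA9 (log2 fold change 5.37, SE 0.44, adjusted p = 2.4e-11). The gene *Gm9913* lies on its other strand, and whether the counting used strand was not given.

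*Il2ra*, the interleukin-2 receptor alpha chain, was at 2.02, 2.59, 2.54, 5.24 and 3.8 CPM in the empty vector and at 51.3, 42.3, 35.4, 108 and 113 CPM in G-NHA9 (log2 fold change 4.45, SE 0.51, adjusted p = 3.9e-08). G-NHA9 replicates 4 and 5 were the higher pair, and the lowest G-NHA9 library still lay above the highest control. *Lepr*, the leptin receptor, rose from 3.68 ± 1.26 to 54.2 ± 8.23 CPM. *Eya1*, a phosphatase and coactivator of homeodomain proteins, was at 1.97, 2.3, 2.8, 3.02 and 2.54 CPM in the empty vector and at 45, 27.7, 28, 32 and 28.1 CPM in G-NHA9 (log2 fold change 3.67, SE 0.25, adjusted p = 7e-13). *Thy1*, a glycoprotein of T cells and some stem cells, went from 15.8 ± 7.38 to 209 ± 64.2 CPM, with every G-NHA9 library at 144 CPM or more and every control at 26.8 CPM or less. *Pfn2*, an actin-binding profilin, had the smallest error of the 15, at 1.03 ± 0.135 and 11.3 ± 0.738 CPM (log2 fold change 3.43, SE 0.15, adjusted p = 2.2e-17). *P2rx3*, an ATP-gated cation channel, had the largest, with 127, 109, 138, 47.9 and 22.4 CPM in G-NHA9 against 3.73 to 16.9 CPM (log2 fold change 3.17, SE 0.66, adjusted p = 0.00036). The others were *Myl10* (myosin light chain, log2 fold change 3.79), *Neto2* (glutamate receptor auxiliary protein, 3.63), *Mefv* (pyrin, an inflammasome sensor, 3.61), *Ambp* (precursor of alpha-1-microglobulin and bikunin, 3.40), *Nxpe5* (3.27), *Scn3a* (voltage-gated sodium channel, 3.13) and *Bpifc* (3.12). *P2rx3* shares its locus with *Ssrp1* on the other strand, and *Il2ra*, *Eya1*, *Neto2* and *Scn3a* overlap short or predicted genes, so part of their counts is uncertain.

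*Arnt2*, a bHLH-PAS transcription factor on chromosome 7 (84246278 to 84410176, minus strand), was at 19.5, 28.1, 22.6, 30.1 and 28.6 CPM in empty vector replicates 1 to 5 and at 1.56, 1.48, 2.58, 1.53 and 1.56 CPM in G-NHA9 (log2 fold change -3.89, SE 0.25, adjusted p = 2.1e-13). Of the genes lowered most, 6 are known from mast cells or basophils, namely the proteases *Mcpt4*, *Cma1*, *Tpsb2* and *Mcpt2*, the IgE receptor chain *Fcer1a* and *Tph1*, the first enzyme of serotonin synthesis. *Fbp1*, an enzyme of gluconeogenesis, fell from 24.2 ± 7.36 to 2.6 ± 1.32 CPM. *Mt2*, a metal-binding metallothionein, was at 439, 362, 342, 353 and 548 CPM in the empty vector and at 57.1, 63, 60.5, 89.4 and 61.3 CPM in G-NHA9 (log2 fold change -2.62, SE 0.23, adjusted p = 1e-10). *Fpr1*, the formyl peptide receptor of phagocytes, was at 42.1 ± 3.69 and 6.68 ± 2.13 CPM. *Maob* (monoamine oxidase B, log2 fold change -3.17), *Avil* (advillin, an actin-binding protein, -3.03), *Kcnn3* (calcium-activated potassium channel, -2.71), *Ptgfrn* (a membrane protein of the immunoglobulin superfamily, -2.69) and *Rprm* (a cell cycle inhibitor, -2.66) completed the 15. *Avil* overlaps *Tsfm* on the other strand, and *Arnt2*, *Ptgfrn* and *Mt2* overlap predicted genes, with the same uncertainty. None of the 30 genes reversed or lost its call in any alternative run.

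**Figure D1:**
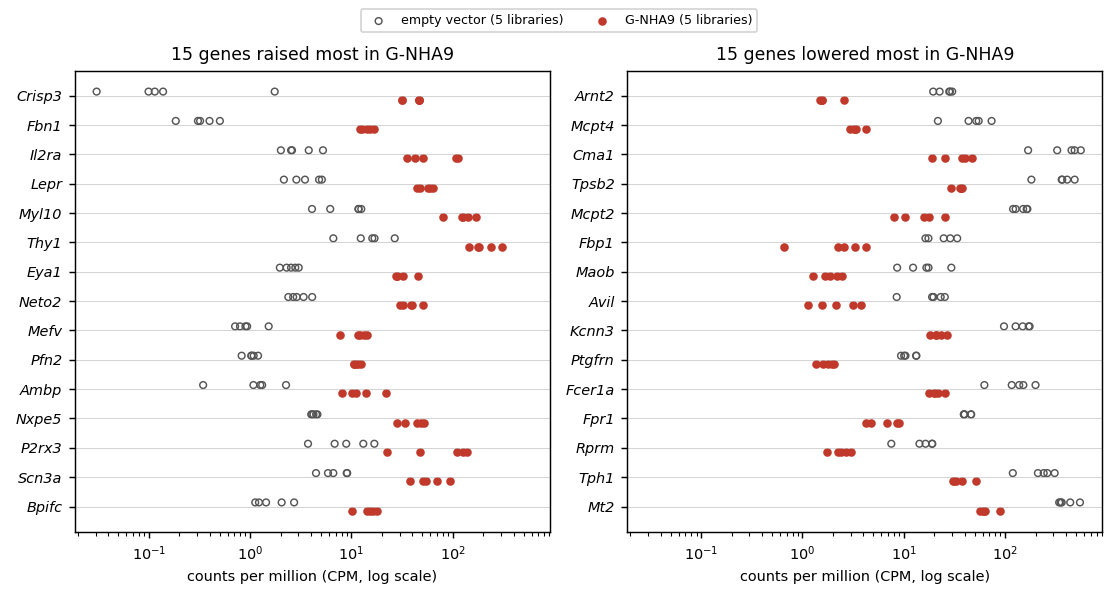
CPM on a log axis of the 15 genes raised most and the 15 lowered most, with 1 open circle for each empty vector library and 1 filled circle for each G-NHA9 library. No gene overlaps between conditions, and 4 of 5 controls of Crisp3 sit at 0.139 CPM or less with 1 at 1.75 CPM.

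Promoter windows of the 2 genes raised most and the 2 lowered most show what lies at the start of the genes with the greatest change. They are RefSeq sequences on GRCm38.p6, run 5′ to 3′ on the gene's strand from 250 bases before to 50 after the annotated start, and capitals mark a motif match. The windows are chr17:40242239-40242538 for *Crisp3*, chr2:125506389-125506688 for *Fbn1*, chr7:84409989-84410288 for *Arnt2* and chr14:56062261-56062560 for *Mcpt4*, all on the minus strand.
Crisp3: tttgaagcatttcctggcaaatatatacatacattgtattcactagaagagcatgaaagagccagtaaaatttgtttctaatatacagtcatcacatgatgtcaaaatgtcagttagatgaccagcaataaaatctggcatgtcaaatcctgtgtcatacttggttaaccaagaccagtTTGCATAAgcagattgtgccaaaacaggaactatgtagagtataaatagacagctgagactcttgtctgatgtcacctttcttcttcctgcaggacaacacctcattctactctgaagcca
Fbn1: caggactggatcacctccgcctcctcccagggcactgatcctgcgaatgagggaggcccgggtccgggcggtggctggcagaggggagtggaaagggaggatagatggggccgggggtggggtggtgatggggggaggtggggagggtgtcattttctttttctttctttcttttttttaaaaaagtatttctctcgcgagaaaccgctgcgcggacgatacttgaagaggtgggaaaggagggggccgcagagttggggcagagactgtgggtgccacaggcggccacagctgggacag
Arnt2: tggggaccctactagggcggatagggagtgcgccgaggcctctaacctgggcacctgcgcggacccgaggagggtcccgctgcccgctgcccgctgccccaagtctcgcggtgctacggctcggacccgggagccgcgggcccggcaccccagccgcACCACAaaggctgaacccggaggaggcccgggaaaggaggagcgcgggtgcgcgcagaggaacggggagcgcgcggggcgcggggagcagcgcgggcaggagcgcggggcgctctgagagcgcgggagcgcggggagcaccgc
Mcpt4: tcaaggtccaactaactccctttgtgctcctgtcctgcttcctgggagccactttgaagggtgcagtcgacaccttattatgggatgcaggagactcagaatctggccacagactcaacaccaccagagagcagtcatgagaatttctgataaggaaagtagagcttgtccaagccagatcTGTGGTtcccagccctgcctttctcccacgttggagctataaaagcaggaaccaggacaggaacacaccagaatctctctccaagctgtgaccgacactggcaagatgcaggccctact

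The 5 motifs searched on both strands were TGATTNAT (HOX with PBX), AGATAA (bound by GATA factors), TTGCNNAA (C/EBP), TGTGGT (RUNX) and TTCNNNGAA (STAT). *Crisp3* held 1 C/EBP match, 71 bases before the start, *Mcpt4* held the RUNX letters 69 bases before the start, and *Arnt2* held them on the opposite strand 93 bases before the start. *Fbn1* held none, in a window whose start is 1555 bases from the GENCODE M21 start. Over 13875 promoters of 10941 tested genes, 1.44% held the HOX with PBX letters, against 1.17% of 2488 promoters of genes that were higher and 1.69% of 2542 promoters of genes that were lower. The shares for all, higher and lower genes were 7.01%, 7.19% and 7.55% for GATA, 8.89%, 8.4% and 10.1% for C/EBP, 13.4%, 13.5% and 13.3% for RUNX, and 7.03%, 7.27% and 6.1% for STAT. These shares are descriptions of letters in short windows, and the table covered 63.8% of the genes tested.

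Primary granule genes rose together, while none of the 28 later neutrophil genes listed were called higher. *Crisp3*, stored in neutrophil granules as said above, is on neither list and rose (log2 fold change 6.49). Of 7 primary granule genes tested, 6 were higher and none lower, with a median log2 fold change of 1.91, against 16.9% higher among all genes. *Ctsg* (cathepsin G) was at 116, 54.1, 78.6, 81.2 and 38.9 CPM in the empty vector and at 345, 496, 331, 405 and 350 CPM in G-NHA9 (log2 fold change 2.39, SE 0.30, adjusted p = 1.6e-07). *Elane* (neutrophil elastase) was at 92.6, 11, 77.7, 98.9 and 54.7 CPM and at 245, 299, 215, 342 and 310 CPM (log2 fold change 2.08, SE 0.44, adjusted p = 0.00041). The conditions did not overlap for either protease, and empty vector replicate 2 was the lowest control for *Elane*. *Ms4a3* (a membrane protein of granulocyte-monocyte progenitors), *Prss57* and *Prtn3* (proteinase 3) had log2 fold changes of 1.96, 1.91 and 1.75, and *Serpinb1a*, an inhibitor of these proteases, 0.35 (adjusted p = 0.037, and 0.341 in the libraries of 8 weeks). *Mpo* (myeloperoxidase) was at 138 ± 86.2 and 264 ± 28.3 CPM and missed the threshold (log2 fold change 0.94, SE 0.37, adjusted p = 0.053). It passed, as all 7 genes did, without TMM (adjusted p = 0.0222), by DESeq2 (0.0352), with the sex-linked covariate, in the blocked model of the 2 conditions and without empty vector replicate 1, but not in the blocked model of all 7 conditions (0.0653).

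Of 28 late neutrophil genes, 9 were lower (32.1%, against 15.2% of all genes) and none higher, with a median of -0.21. *Chil3*, a chitinase-like protein that macrophages also make, was at 5289, 16022, 10454, 11873 and 8454 CPM in the empty vector and at 1819, 2578, 3448, 1232 and 888 CPM in G-NHA9 (log2 fold change -2.39, SE 0.31, adjusted p = 3.5e-07). *Fpr2*, *Orm1* and *Retnlg* had log2 fold changes of -1.84, -1.72 and -1.42. The calprotectin chains *S100a8* and *S100a9* overlapped between conditions, at 3090 ± 499 and 3412 ± 687 CPM and at 4013 ± 615 and 4207 ± 767 CPM.

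Mast cell and basophil genes made up the lineage list with the largest share lowered. Of 22 tested, 16 were lower and 1 higher (15.2% and 16.9% of all genes), with a median of -1.01. Their summed level was 5447, 4642, 4714, 3774 and 2488 CPM in empty vector replicates 1 to 5 and 1962, 1575, 1789, 1570 and 1635 CPM in G-NHA9, without overlap. *Mcpt4*, a chymase on chromosome 14 (56059629 to 56062313, minus strand), was at 54.8, 73.5, 43.6, 51.9 and 21.7 CPM and at 3.28, 3.22, 3.36, 4.28 and 2.97 CPM (log2 fold change -3.84, SE 0.48, adjusted p = 1.6e-07). *Cma1* (mast cell chymase) was at 559, 485, 452, 327 and 169 CPM and at 25.3, 18.9, 47.1, 37.4 and 39.7 CPM (log2 fold change -3.56, SE 0.35, adjusted p = 1.8e-09). The control level of *Cma1*, *Fcer1a* (62.4 to 200 CPM) and *Cpa3* was lowest in empty vector replicate 5 in each case. *Cpa3*, the carboxypeptidase of mast cell granules, fell less, from 1036 ± 460 to 301 ± 42.7 CPM (log2 fold change -1.78, SE 0.25, adjusted p = 1.3e-06). *Hdc*, which makes histamine, was at 214 ± 40.9 and 196 ± 21.4 CPM (log2 fold change -0.13, adjusted p = 0.79), and *Hpgds*, which makes prostaglandin D2, was the member that rose (27.8 ± 7.13 to 45.9 ± 14.8 CPM, log2 fold change 0.72, adjusted p = 0.047, and 0.562 in the libraries of 8 weeks). *Tpsb2* and *Tpsab1* (log2 fold change -4.42, from 6.92 ± 1.43 CPM) are near-identical tryptases, and how the counting split reads between such copies was not given.

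Of 12 eosinophil genes, 6 were lower (50%, against 15.2% of all genes) and none higher, with a median of -1.21. *Prg2*, the major basic protein, was at 759, 1118, 933, 677 and 952 CPM in the empty vector and at 560, 546, 247, 129 and 347 CPM in G-NHA9 (log2 fold change -1.28, SE 0.39, adjusted p = 0.012), without overlap. *Ear2*, an eosinophil ribonuclease with close copies, had a log2 fold change of -2.10, and *Il5ra*, the interleukin-5 receptor, of -1.59. *Epx*, eosinophil peroxidase, overlapped by 1 library, at 322 to 598 CPM against 112 to 334 CPM (log2 fold change -0.96, SE 0.42, adjusted p = 0.082).

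Platelet and megakaryocyte genes were lower in 9 of 20 (45%, against 15.2% of all genes) and higher in none, with a median of -0.88. *Vwf*, von Willebrand factor, was at 266, 421, 375, 462 and 358 CPM in the empty vector and at 148, 173, 189, 120 and 120 CPM in G-NHA9 (log2 fold change -1.33, SE 0.21, adjusted p = 6.4e-06). *Pf4*, platelet factor 4, was at 200, 393, 415, 415 and 273 CPM and at 92.4, 290, 286, 100 and 91.2 CPM (log2 fold change -0.98, SE 0.36, adjusted p = 0.033). G-NHA9 replicates 2 and 3 were within the control range of *Pf4*, the other 3 were below it, and the adjusted p was 0.0625 without TMM and 0.145 at 8 weeks. The number of lower members depended on single libraries and on scaling. It was 14 without G-NHA9 replicate 2, 5 without G-NHA9 replicate 4, 5 without TMM, 4 in the libraries of 8 weeks, and 14 with replicate number as a blocking term.

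Red cell genes did not pass the test against the empty vector. None of 4 globins and none of 18 genes of the red cell membrane and skeleton were called, with medians of -0.05 and -0.14, and 1 membrane gene was called with replicate number as a blocking term, without empty vector replicate 4 or 5, or without G-NHA9 replicate 5. The summed membrane level was 373, 295, 262, 267 and 294 CPM in empty vector replicates 1 to 5 and 187, 239, 231, 243 and 357 CPM in G-NHA9, with replicate 1 of each condition at opposite ends. *Slc4a1*, the band 3 anion exchanger, was at 52, 13.2, 13.7, 12.7 and 30.1 CPM and at 4.47, 12.5, 9.39, 13.1 and 36.8 CPM (log2 fold change -0.68, SE 0.54, adjusted p = 0.38). Erythroid and megakaryocyte transcription factors were higher in 5 of 15 and lower in none (33.3% higher, against 16.9% of all genes). The higher members included *Lmo2* (92.6 ± 10.5 to 145 ± 18.8 CPM, log2 fold change 0.65, adjusted p = 3.6e-06) and *Bcl11a* (0.97, adjusted p = 0.01). The count of 5 was 3 without G-NHA9 replicate 5. *Gata1* (log2 fold change -0.49, adjusted p = 0.085) and *Gata2* (-0.31, adjusted p = 0.42) did not pass. Of 13 heme synthesis genes, 1 was higher and 2 were lower, *Fech* (-0.42) and *Tmem14c* (-0.27). The lower share, 15.4%, was near the 15.2% of all genes. The lower count was 1 without empty vector replicate 3 or without G-NHA9 replicate 1 and 0 without TMM.

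Monocyte and macrophage genes split. Of 25 tested, 12 were lower and 4 higher, with a median of -0.32. These are 48% and 16%, against 15.2% and 16.9% of all genes, so the higher share was near that of all genes. The summed level went from 47823 ± 6293 to 24472 ± 6902 CPM without overlap. *Lyz2*, lysozyme, carried most of it, at 25449, 32327, 35477, 25650 and 26536 CPM in the empty vector and 10804, 7814, 11983, 8618 and 3981 CPM in G-NHA9 (log2 fold change -1.75, SE 0.24, adjusted p = 9.7e-07). The macrophage scavenger and mannose receptors *Marco* (15 ± 3.47 to 2.95 ± 1.43 CPM) and *Mrc1* (1357 ± 250 to 521 ± 195 CPM) fell as well. The members that rose included 3 that mark monocytes. *Ly6c2*, a surface antigen of inflammatory monocytes, was at 307, 251, 326, 311 and 314 CPM and at 774, 938, 887, 952 and 809 CPM (log2 fold change 1.53, SE 0.16, adjusted p = 4.4e-09). *Ccr2*, the receptor by which they leave the marrow, rose from 296 ± 64.3 to 784 ± 190 CPM, and *Cx3cr1* from 0.568 ± 0.248 to 1.63 ± 0.731 CPM.

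The complement list was divided in the same comparison, with 3 genes higher and 4 lower of 13. These are 23.1% and 30.8%, against 16.9% higher and 15.2% lower among all genes. The 3 that rose encode the chains of C1q. *C1qb* was at 0.62 ± 0.171 and 5.33 ± 1.48 CPM (log2 fold change 3.09, SE 0.39, adjusted p = 2e-07), *C1qc* had a log2 fold change of 2.92, and *C1qa*, with at most 3 counts in every control, was at least 5.81-fold higher. The 4 that fell were *Cd55*, *C1ra*, *C5ar1* and *C3ar1* (-1.26 to -0.58), of which 2 still passed without TMM. Genes of MHC class II presentation were higher in 3 of 16 and lower in 5 (18.8% and 31.2%). *H2-Aa*, a classical class II chain, was at 337 ± 22.8 and 193 ± 43.4 CPM (log2 fold change -0.80, adjusted p = 0.00014), and *Ctss*, the protease that trims the invariant chain, had a log2 fold change of -1.43. The nonclassical chain *H2-Ob* rose from 12.6 ± 2.37 to 66.6 ± 14.6 CPM (2.41, adjusted p = 3.9e-11), as did the costimulatory receptor *Cd40*, from 0.366 ± 0.121 to 5.32 ± 1.09 CPM (3.82, adjusted p = 3.6e-11).

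**Figure D2:**
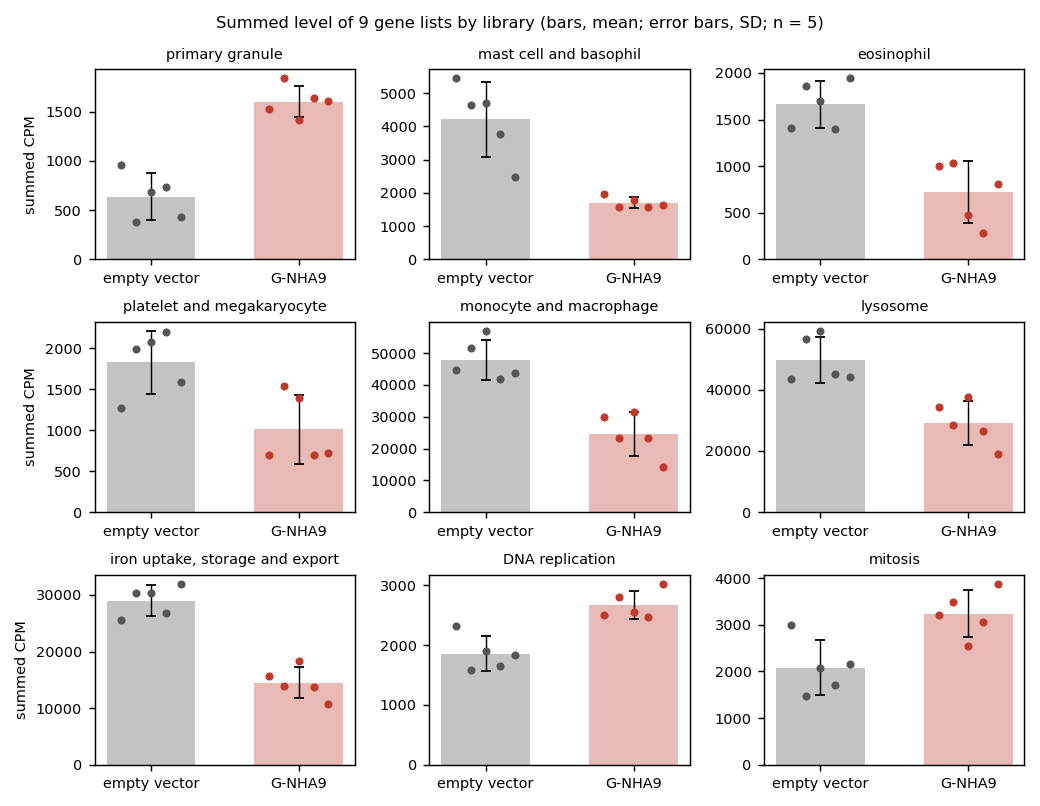
Summed CPM of the tested members of 9 gene lists, with a point for each library, the mean as a bar and the SD as an error bar (n = 5 libraries per condition). The mast cell and basophil sum runs from 2488 to 5447 CPM in the empty vector and from 1570 to 1962 CPM in G-NHA9, while the platelet and the mitosis sums overlap.

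Stem and progenitor surface genes rose and fell in like numbers (7 higher and 5 lower of 23), with some of the largest rises of any list. The shares were 30.4% and 21.7%, against 16.9% and 15.2% of all genes. *Flt3*, the receptor of FLT3 ligand, was at 0.096, 0.253, 0.162, 0.332 and 0.0918 CPM in the empty vector and at 10.2, 9.2, 10.3, 8.75 and 7.18 CPM in G-NHA9 (log2 fold change 5.61, SE 0.32, adjusted p = 8.9e-15). *Cd34*, a sialomucin of progenitors, was at 44.1, 38.3, 45.5, 34 and 22.6 CPM and at 201, 222, 227, 215 and 235 CPM (log2 fold change 2.57, SE 0.19, adjusted p = 3.5e-12). *Cd27*, with at most 3 counts in every control, was at least 30.3-fold higher. *Kit*, the stem cell factor receptor, which mast cells also carry, went the other way, from 83.4 ± 10 to 45.2 ± 16.6 CPM (log2 fold change -0.88, SE 0.26, adjusted p = 0.0076, and 0.0551 in the libraries of 8 weeks), and *Cd200* had a log2 fold change of -1.83.

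Of 37 regulators known from stem cells or leukemia, 18 were higher and 2 lower, with a median of 0.55. These are 48.6% and 5.41%, against 16.9% and 15.2% of all genes. *Myb* was at 41, 23.3, 34.7, 32.7 and 22.8 CPM in the empty vector and at 124, 127, 105, 128 and 121 CPM in G-NHA9 (log2 fold change 1.97, SE 0.18, adjusted p = 2e-10). *Mecom*, the EVI1 zinc finger factor, was at 1.31 ± 0.347 and 7.31 ± 1.59 CPM (2.48, adjusted p = 2.5e-07). *Gfi1*, a repressor needed for neutrophil maturation, rose from 18 ± 6.35 to 64.6 ± 10.5 CPM, and the RNA-binding protein *Igf2bp3* from 12.3 ± 2.39 to 34 ± 3.98 CPM. The fetal factors *Hmga2* (0.416 ± 0.162 to 2.7 ± 1.05 CPM) and *Lin28b* (0.0803 ± 0.0689 to 0.666 ± 0.142 CPM) rose at low levels.

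Homeobox genes outside the *Hox* clusters went both ways, with 8 higher and 8 lower of 32 tested. This is 25% each, against 16.9% higher and 15.2% lower among all genes. *Tgif2* (0.782 ± 0.199 to 3.88 ± 1.03 CPM, log2 fold change 2.32), *Pbx4* (1.94) and *Nkx2-3* (1.62) were raised, and *Pitx1* (-3.33) was among the lowered. The lower count was 5 without TMM. Myeloid transcription factors were lower in 8 of 36 and higher in 3 (22.2% and 8.33%). *Klf4*, a monocyte factor, fell from 125 ± 20.1 to 38.9 ± 19.4 CPM, *Bhlhe41* from 153 ± 54.8 to 40.9 ± 4.26 CPM, and *Cebpe*, a factor of granule formation, rose from 33.2 ± 6.33 to 67.5 ± 14.4 CPM. With replicate number as a blocking term 16 of them were lower, and without G-NHA9 replicate 2 the count was 5.

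Of 44 receptors for cytokines and growth factors, 17 were lower, 3 were higher and 24 were not called (15.2% of all genes were lower and 16.9% higher). Beside *Flt3* and *Il2ra*, the largest changes were decreases in *Il5ra*, *Il1rl1* (the interleukin-33 receptor, -1.54), *Ghr* (growth hormone receptor, -1.36) and *Igf2r* (-1.24). *Il7r*, the interleukin-7 receptor chain, was at 328, 371, 381, 301 and 272 CPM and at 218, 135, 179, 107 and 105 CPM (log2 fold change -1.15, SE 0.24, adjusted p = 0.00032). Genes that damp cytokine signals were higher in 7 of 34 and lower in 3, led by the phosphatase *Dusp2* (3.92 ± 1.13 to 16.1 ± 8.94 CPM, log2 fold change 2.03) and by *Socs2*. *Socs2*, a STAT5-induced inhibitor of growth factor receptors, was at 30, 28, 23.7, 24.5 and 26.8 CPM and at 65.4, 65.5, 62.3, 63.5 and 61.4 CPM (log2 fold change 1.26, SE 0.10, adjusted p = 8.1e-12), the least scattered rise among these genes named. The count of 7 was 4 without empty vector replicate 2.

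Cytokine ligands rose in 8 and fell in 8 of 37 (21.6% each), not far from the 16.9% and 15.2% of all genes. *Il12a*, a chain of interleukins 12 and 35, rose from 2.64 ± 0.607 to 12.8 ± 4.07 CPM, and *Il10* from 0.0818 ± 0.0675 to 0.87 ± 0.305 CPM. *Csf2*, which encodes GM-CSF itself, fell from 1.13 ± 0.423 to 0.186 ± 0.131 CPM (log2 fold change -2.63, SE 0.42, adjusted p = 1.1e-05) in cultures that were given the factor. The count that fell was 5 without TMM and 5 without G-NHA9 replicate 4. Chemokines and their receptors were higher in 8 of 31 and lower in 3 (25.8% and 9.68%). The abundant *Ccl6* fell from 8585 ± 612 to 3650 ± 1096 CPM, whereas *Ccr4* (0.434 ± 0.154 to 2.72 ± 1.6 CPM), *Ccl22* (1.62 on the log2 scale) and *Ccr2* rose. Their higher count was 13 without TMM and 14 in the blocked 2-condition model.

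Several lists of surface receptors had more members lower than the 15.2% of all genes. Of 41 activating and inhibitory immunoglobulin-like receptors, 22 were lower and 3 higher (median -0.49), with *Lilra5* at -2.54 on the log2 scale and the close copies *Sirpb1c*, *Sirpb1a* and *Sirpb1b* at -1.54, -1.51 and -1.35. C-type lectins were lower in 10 of 24 and higher in 5. *Clec4b1* (-2.46) and the dendritic cell receptor *Clec9a* (-2.12) fell, and *Clec2i* rose from 10 ± 1.3 to 74.5 ± 15.5 CPM (2.90, adjusted p = 1e-11). Pattern recognition genes were lower in 14 of 33 and higher in 1, and in 9 without TMM. *Tlr8*, an endosomal receptor of single-stranded RNA, was at 62.6, 65.7, 73.6, 66.4 and 60.2 CPM and at 38.3, 17.9, 24.6, 20.4 and 16.6 CPM (log2 fold change -1.48, SE 0.23, adjusted p = 5.9e-06). Of 40 integrins and adhesion molecules, 14 were lower and 4 higher, with *Jam3* (2.34) among the raised and *F11r* (-1.42) and *Itga2* (-1.39) among the lowered. In the eicosanoid pathway 11 of 26 were lower and 5 higher, and *Hpgd*, which breaks down prostaglandins, rose from 0.349 ± 0.0942 to 3.51 ± 1.7 CPM.

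**Figure D3:**
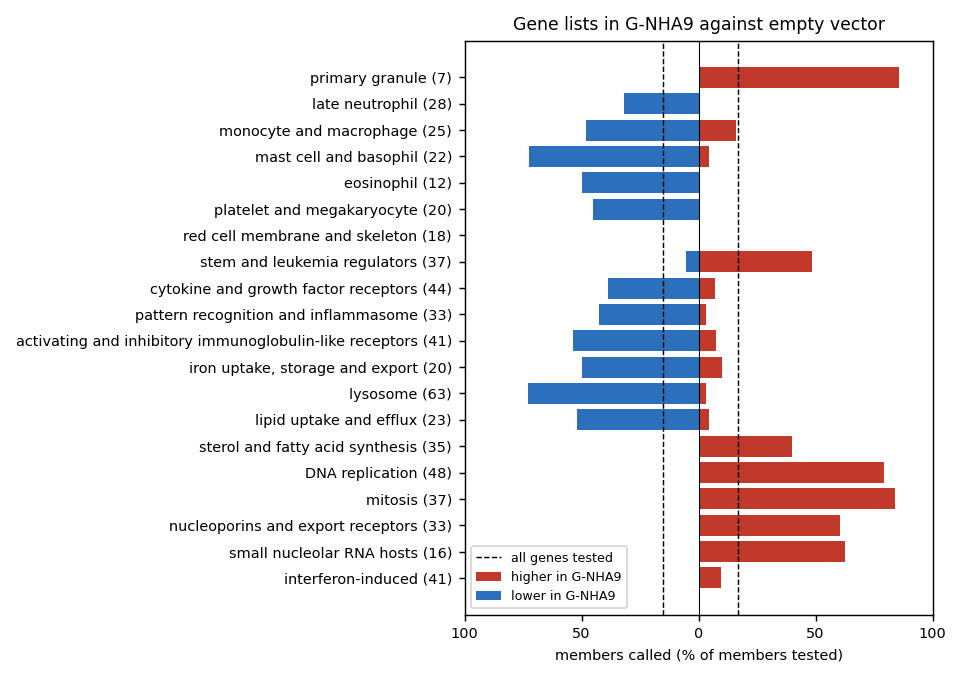
Share of tested members that were higher (to the right) or lower (to the left) in G-NHA9 at an adjusted p under 0.05, for 20 gene lists with the number tested in parentheses. Dashed lines mark the shares over all genes tested, 16.9% higher and 15.2% lower, and the widest bars stand for primary granule genes (6 of 7 higher) and for lysosomal genes (46 of 63 lower).

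Lysosomal genes formed the largest group that fell. Of 63 tested, 46 were lower and 2 higher (73% and 3.17%, against 15.2% and 16.9% of all genes), with a median of -0.51. The sum was 43663, 56765, 59243, 45337 and 44201 CPM in the empty vector and 34355, 28410, 37611, 26601 and 19040 CPM in G-NHA9. *Atp6v0d2*, a subunit of the proton pump, was at 596, 730, 568, 451 and 436 CPM and at 263, 181, 261, 98 and 90.4 CPM (log2 fold change -1.64, SE 0.27, adjusted p = 2e-05). The cathepsins *Ctsk* (-1.60) and *Ctsh* (-1.09) and the acid lipase *Lipa* (-1.29) fell with it. Between 45 and 49 members were lower when any 1 of the 10 libraries was left out. Genes of lipid uptake and efflux were lower in 12 of 23 and higher in 1 (median -0.41), led by 2 nuclear receptors. *Nr1h3* (LXR-alpha) fell from 23 ± 5.17 to 5.53 ± 2.27 CPM and *Pparg* from 76.5 ± 8.6 to 25.4 ± 5.38 CPM, and the cholesterol exporter *Abcg1* was at 921, 978, 861, 833 and 988 CPM and at 385, 352, 448, 333 and 350 CPM (log2 fold change -1.29, SE 0.16, adjusted p = 1.3e-07).

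Iron genes were lower in 10 of 20 and higher in 2 (50% and 10%, against 15.2% and 16.9% of all genes), with a median of -0.58. The ferritin light chain *Ftl1* was at 17704, 20716, 19822, 15794 and 18054 CPM in the empty vector and at 9620, 8899, 12187, 8187 and 5521 CPM in G-NHA9 (log2 fold change -1.05, SE 0.19, adjusted p = 4.4e-05). The heavy chain *Fth1* went from 9117 ± 2148 to 4367 ± 503 CPM, and *Trf* (transferrin) from 70 ± 9.67 to 14 ± 3.97 CPM (-2.33, adjusted p = 2.1e-08). Both ferritin genes have processed copies elsewhere in the genome that can share reads. The level of the monocyte and macrophage list and those of the lysosomal and iron lists were all lowest in G-NHA9 replicate 5, and the part of macrophage content in the other 2 was not tested.

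Sterol and fatty acid synthesis moved the other way from lipid efflux, with 14 of 35 genes higher and none lower (median 0.19). *Fasn*, fatty acid synthase, was at 170, 129, 143, 206 and 222 CPM and at 232, 231, 219, 395 and 625 CPM (log2 fold change 0.97, SE 0.28, adjusted p = 0.0086). G-NHA9 replicates 4 and 5 were the highest, and replicate 3 fell within the control range. *Fads2*, a fatty acid desaturase, rose from 32.5 ± 9.31 to 56.3 ± 10.5 CPM and *Acat2*, which joins acetyl-CoA units, from 27.8 ± 6.49 to 45.3 ± 9.12 CPM. Serine, one-carbon and amino acid stress genes were higher in 11 of 29 and lower in 3. *Shmt1*, a folate-dependent enzyme, rose from 8.72 ± 2.4 to 27.8 ± 3.01 CPM, *Shmt2* and *Pycr1* had log2 fold changes of 1.17 and 1.77, and the stress factor *Ddit3* (CHOP) one of -0.91. Glycolysis and lactate transport genes were higher in 7 of 26 and lower in 1 (26.9% and 3.85%, against 16.9% and 15.2% of all genes). *Slc16a1*, a lactate transporter, rose from 43.2 ± 5.65 to 81 ± 14.9 CPM and *Ldhb* fell from 1.74 ± 0.397 to 0.417 ± 0.101 CPM. The 7 became 13 without TMM and 4 without empty vector replicate 2 or G-NHA9 replicate 5.

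DNA replication genes were higher in 38 of 48 (79.2%, against 16.9% of all genes) and lower in none, with a median of 0.59. *Pole*, the leading strand polymerase, was at 26.6, 17, 22.7, 20.9 and 23.9 CPM in the empty vector and at 44.1, 48.6, 43.5, 47.4 and 56.8 CPM in G-NHA9 (log2 fold change 1.11, SE 0.18, adjusted p = 1.8e-05). *Mcm5*, of the replicative helicase, was at 88.1, 48.3, 61.7, 53.2 and 54.8 CPM and at 99.3, 120, 108, 97.4 and 128 CPM (log2 fold change 0.85, SE 0.18, adjusted p = 0.0004). Empty vector replicate 1 was the highest control for *Mcm5* and also for the replication sum, 2323 CPM against 1594 to 1896 CPM in the other controls and 2464 to 3030 CPM in G-NHA9.

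Mitosis genes were higher in 31 of 37 and lower in none, with a median of 0.65. Their summed level overlapped between conditions, with empty vector replicate 1 at 2998 CPM and G-NHA9 replicate 3 at 2536 CPM. *Cdc20*, the activator of the anaphase-promoting complex, went from 26.8 ± 6.76 to 53.2 ± 7.57 CPM (log2 fold change 0.99, SE 0.21, adjusted p = 0.00037). *Top2a* was at 435, 201, 302, 221 and 269 CPM and at 496, 542, 395, 405 and 542 CPM (0.74, SE 0.19, adjusted p = 0.0036), and empty vector replicate 1 lay within the G-NHA9 range. *Mki67*, which encodes Ki-67, rose from 382 ± 111 to 570 ± 155 CPM (0.58, adjusted p = 0.045), with overlap. In the libraries of 8 weeks the adjusted p was 0.0746 for *Top2a* and 0.203 for *Mki67*. The count of 31 was 16 without empty vector replicate 2, 20 without empty vector replicate 4, 19 without G-NHA9 replicate 5 and 19 in the libraries of 8 weeks. Of 27 genes of G1 control, 5 were higher and 3 lower (18.5% and 11.1%), near the 16.9% and 15.2% of all genes. Among these 8, *E2f8* (1.11), *Cdk6* (0.63), *Cdk2* (0.49) and *Cdk4* (0.49) rose, and *Ccnd1* (-0.87), *Cdkn2a* (-0.63) and *Rb1* (-0.50) fell. The 5 became 12 without TMM and 3 without empty vector replicate 2 or G-NHA9 replicate 5.

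Nuclear pore and transport genes were higher in 20 of 33 and lower in none, with a median of 0.35. *Nup107*, a scaffold nucleoporin, was at 44.3, 28.5, 38.4, 32.9 and 33.7 CPM and at 56.1, 67, 56.7, 61.9 and 68.5 CPM (log2 fold change 0.80, SE 0.13, adjusted p = 1.3e-05), without overlap, and the export GTPase *Ran* had a log2 fold change of 0.55. The 20 became 12 without G-NHA9 replicate 5. Small nucleolar RNA host genes, spliced transcripts whose introns carry these RNAs, were higher in 10 of 16 and lower in none (median 0.59). *Gas5* rose from 108 ± 29.8 to 174 ± 20.7 CPM and *Snhg1* from 37.5 ± 7.72 to 61.6 ± 5.45 CPM, and their counts include reads from the small RNAs encoded within them where these were captured. Chromatin regulators of the MLL, Polycomb, DNA methylation and acetylation groups were higher in 16 of 52 and lower in 1. These are 30.8% and 1.92%, against 16.9% and 15.2% of all genes. Their median was 0.01, no different from that of all genes, so the list as a whole did not rise. *Cbx6*, a Polycomb reader, rose from 15.7 ± 2.16 to 38.9 ± 6.47 CPM and *Dnmt3b*, a de novo DNA methyltransferase, from 3.14 ± 0.532 to 7.25 ± 0.8 CPM, whereas its relative *Dnmt3a* had a log2 fold change of -0.60. The 16 became 10 without empty vector replicate 2 or 4.

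**Figure D4:**
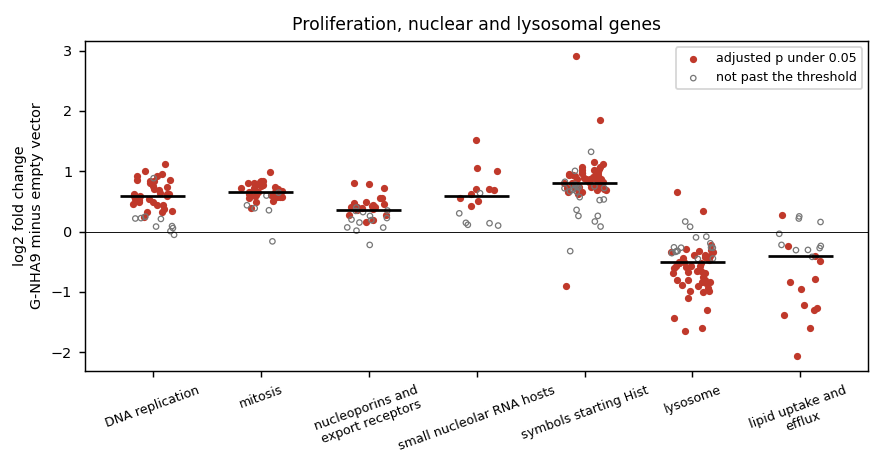
Log2 fold change of G-NHA9 against empty vector for each tested member of 7 groups, filled where the adjusted p is under 0.05, with a line at the median. The medians lie at 0.59 for DNA replication, 0.65 for mitosis and -0.51 for the lysosome.

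Of 41 interferon-induced genes, 4 were higher and none lower, fewer than the shares of all genes (16.9% and 15.2%). *Gbp5*, a guanylate-binding protein, rose from 3.76 ± 0.772 to 6.51 ± 0.875 CPM (log2 fold change 0.79, SE 0.18, adjusted p = 0.00095), while *Isg15* (9.23 ± 3.62 and 9.94 ± 2.09 CPM) and *Irf7* (20 ± 6.37 and 25.8 ± 2.94 CPM) overlapped between conditions. The 4 became 10 without TMM, 13 in the 2-condition model with the block, and 2 without empty vector replicate 2. In the BCL2 family 4 of 18 were higher and 7 lower. *Bcl2a1b*, *Bcl2a1a* and *Bcl2a1d*, which were lower (-1.51, -1.47 and -0.78), are near-identical copies, and *Mcl1*, an inhibitor of cell death, had a log2 fold change of -0.60. Of 24 p53 target genes, 4 were higher and 2 lower (16.7% and 8.33%), no more than the 16.9% and 15.2% of all genes.

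Ligands and receptors of development were lower more than the 15.2% of all genes, in 14 of 39 Eph, semaphorin and guidance genes (9 higher), 10 of 31 Notch and Wnt genes (4 higher) and 9 of 32 TGF-beta family genes (3 higher), while the largest changes named here were increases. *Robo1*, a guidance receptor with at most 3 counts in every control, was at least 13.6-fold higher, at 0.389, 0.762, 1.25, 1.26 and 1.82 CPM. *Epha3*, an ephrin receptor, rose from 0.239 ± 0.228 to 2.63 ± 0.55 CPM, and *Rspo1*, a secreted activator of Wnt signaling, from 0.181 ± 0.0972 to 2.56 ± 0.298 CPM (log2 fold change 3.76, SE 0.28, adjusted p = 3.4e-12). The Notch ligand *Jag2* rose from 0.696 ± 0.0994 to 4.59 ± 1.3 CPM. *Axin2*, a target and inhibitor of Wnt signaling, fell from 1.75 ± 0.286 to 0.395 ± 0.147 CPM, and *Tcf7l2* from 28.8 ± 17.1 to 7 ± 3.43 CPM. The lower counts were 9 for the guidance genes in the libraries of 8 weeks, 6 for the Notch and Wnt genes in the 2-condition model, and 15 for the TGF-beta family with the block.

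Markers of cells that a lineage-negative culture could still hold were followed beside these groups. Of 13 lymphoid genes tested, 4 were higher and 2 lower. *Cd5* (0.243 ± 0.0749 to 1.65 ± 0.296 CPM) and the kinase *Lck* (0.866 ± 0.149 to 3.45 ± 0.208 CPM) rose at low levels, and *Cd2* and *Il7r* fell. The summed level was 280 to 388 CPM in the empty vector and 117 to 229 CPM in G-NHA9. *Il7r*, with its values given above, made up most of this sum in every library, and the list median was 0.34. *Cd79a*, *Pax5*, *Cd3e*, *Rag1* and *Rag2*, which define B and T cells, were too low to be tested. The higher count was 2 without empty vector replicate 2 or 3. Of 9 genes of stroma and endothelium tested, 3 were higher and 3 lower, with a sum of 42.7 to 91.2 CPM in the empty vector and 72.1 to 107 CPM in G-NHA9. *Lepr* alone went from 3.68 ± 1.26 to 54.2 ± 8.23 CPM and made up most of the G-NHA9 sum. The sum therefore does not show how the other members moved. *Lepr* and *Pdgfrb* (0.882 ± 0.33 to 8.6 ± 4.58 CPM) rose and *Pdgfra* (1.27 ± 0.273 to 0.228 ± 0.164 CPM) fell, and the stromal markers *Cxcl12*, *Col3a1*, *Dcn* and *Cdh5* were too low to be tested. Dendritic cell genes were higher in 4 of 19 and lower in 5, with sums of 1237 to 1451 and 594 to 982 CPM. Their shares were 21.1% and 26.3%, against 16.9% and 15.2% of all genes. The part of these cells in the changes above was not tested.

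Gene families were also formed by the letters of the symbol, without regard to function, and 173 held at least 10 tested genes. Their shares stand beside 16.9% higher and 15.2% lower among all genes. The largest shares raised were in *Mcm* (9 of 10), *Hist* (43 of 67), *Ppm* (7 of 11), *Nup* (12 of 20), *Tnfsf* (6 of 11, with 4 lower) and *Rad* (9 of 18), whose share *Snhg* (7 of 14), *Srsf* (5 of 10) and *Trmt* (8 of 16) equalled. The clustered histone genes had a median of 0.80, with 1 lower (*Hist3h2ba*, -0.90), but the count of 43 was 20 without G-NHA9 replicate 2, 23 without empty vector replicate 4, 27 without empty vector replicate 5 and 6 in the libraries of 8 weeks, and many of them are near-identical copies. The raised *Nup* members include *Nup98* (log2 fold change 0.40), on which reads from the construct can land. Without G-NHA9 replicate 5 the *Nup* count was 6, and without empty vector replicate 4 or G-NHA9 replicate 2 the *Rad* count was 4. *Tnfsf11*, the RANK ligand, rose from 0.0808 ± 0.0494 to 0.927 ± 0.265 CPM. The largest shares lowered were in *Snx* (14 of 29), *Cd* (34 of 76, with 12 higher), *Stx* (6 of 14), *Cyb* (5 of 12), *Tlr* (5 of 12) and *Atp* (28 of 70, with 4 higher), whose share *Adam* (6 of 15), *Anxa*, *Inpp* and *Lrp* (4 of 10 each) equalled. Sorting nexins and syntaxins serve membrane traffic, and the *Atp* family includes the proton pump subunits of the lysosome. *Snx* lower members numbered 6 and *Cyb* members 2 without TMM, and 3 *Cyb* members were lower without G-NHA9 replicate 4.

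Against the constructs most like it, many globin, red cell membrane, eosinophil and platelet genes were higher in G-NHA9. None of these genes were higher in G-NHA9 than in the empty vector, with list medians of -0.05, -0.14, -1.21 and -0.88. The comparisons with the 2 constructs share the G-NHA9 libraries with the one against the empty vector, so values are set side by side. Of all genes, 8.04% were higher and 6.43% lower in G-NHA9 than in G-NHA9–8FA (2484 genes in all, 1556 without G-NHA9 replicate 5 and 3952 with the block), and 11.2% were higher and 8.5% lower than in G-NHA9Midi (3378 genes). Of the 18 red cell membrane genes, 16 were higher in G-NHA9 than in G-NHA9–8FA and 15 than in G-NHA9Midi. *Slc4a1*, at 24.3 ± 17.1 CPM in the empty vector and 15.2 ± 12.5 CPM in G-NHA9, was at 0.765 ± 0.527 CPM in G-NHA9–8FA (log2 difference 4.27, SE 0.67, adjusted p = 3e-05) and at 0.534 ± 0.431 CPM in G-NHA9Midi (4.93, SE 0.71, adjusted p = 4e-06). All 4 globins were higher than in either construct, with *Hbb-bs* at 145 ± 45.6 CPM in G-NHA9, 12.1 ± 7.19 CPM in G-NHA9–8FA and 7.41 ± 6.73 CPM in G-NHA9Midi. *Gata1* was at 14.1 ± 3.57, 5.97 ± 1.04 and 4.16 ± 1.31 CPM in that order (adjusted p = 0.00022 and 7.7e-07).

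Eosinophil genes were higher in G-NHA9 in 9 of 12 against either construct, although 6 of the 12 were lower than in the empty vector. *Epx* was at 222 ± 96.6 CPM in G-NHA9, 32.2 ± 25.4 CPM in G-NHA9–8FA and 9.44 ± 7.71 CPM in G-NHA9Midi (adjusted p = 4.4e-05 and 2.8e-08). Platelet genes were higher in 11 of 20 against G-NHA9–8FA, 17 with the block, and in 18 of 20 against G-NHA9Midi, although 9 of them were lower than in the empty vector. Of 22 mast cell and basophil genes, none were higher and 2 lower than in G-NHA9–8FA, and 7 were higher and 1 lower than in G-NHA9Midi. *Cma1* was at 33.7 ± 11.4, 43.6 ± 9.94 and 23.2 ± 12.5 CPM in G-NHA9, G-NHA9–8FA and G-NHA9Midi (adjusted p = 0.48 and 0.26). Primary granule genes were likewise called in none of 7 against G-NHA9–8FA, with *Ctsg* at 385 ± 68 and 300 ± 146 CPM (log2 difference 0.36, SE 0.28). Of 28 late neutrophil genes, 14 were lower and 3 higher than in G-NHA9–8FA, and 8 lower and 7 higher than in G-NHA9Midi. Those lower than in G-NHA9–8FA included *S100a8* (3412 ± 687 against 8415 ± 2973 CPM) and *S100a9* (4207 ± 767 against 10866 ± 3448 CPM).

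Among the genes changed most, *Eya1* was near the empty vector level in both constructs, at 2.66 ± 0.759 CPM in G-NHA9–8FA and 1.65 ± 0.446 CPM in G-NHA9Midi against 32.2 ± 7.38 CPM in G-NHA9 (log2 difference 3.59, SE 0.25, adjusted p = 1.2e-11, and 4.28, SE 0.26, adjusted p = 1.7e-13). *Mecom* (1.61 ± 0.722 and 1.54 ± 0.572 CPM against 7.31 ± 1.59 CPM) and *C1qb* (0.934 ± 0.582 and 0.469 ± 0.196 CPM against 5.33 ± 1.48 CPM) were placed alike. *Flt3* and *Fbn1* were in between, at 1.54 ± 0.364 and 2.2 ± 0.683 CPM and at 2.9 ± 1.76 and 3.03 ± 1.29 CPM. *Mefv*, at 11.8 ± 2.47 CPM in G-NHA9, was higher in the 2 constructs (26.2 ± 4.59 and 27.6 ± 8.21 CPM, adjusted p = 0.0011 and 0.00035), and *Pfn2* was higher in G-NHA9Midi (35.8 ± 6.5 against 11.3 ± 0.738 CPM). Interferon-induced genes, few of which moved against the empty vector, were higher in G-NHA9 in 10 of 41 against G-NHA9–8FA, 16 without TMM, and in 23 against G-NHA9Midi. *Oas3*, an antiviral enzyme, was at 38.2 ± 18.7 CPM in the empty vector, 57.3 ± 13.2 CPM in G-NHA9, 15.6 ± 7.29 CPM in G-NHA9–8FA and 12.7 ± 1.84 CPM in G-NHA9Midi. DNA replication and mitosis genes were higher in 14 of 48 and 19 of 37 against G-NHA9–8FA, but in 2 and 4 without G-NHA9 replicate 5, so these counts rest on single libraries. Against G-NHA9Midi they were higher in 6 of 48 (12.5%) and 12 of 37 (32.4%), beside 11.2% of all genes. The replication share was thus near that of all genes.

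**Figure D5:**
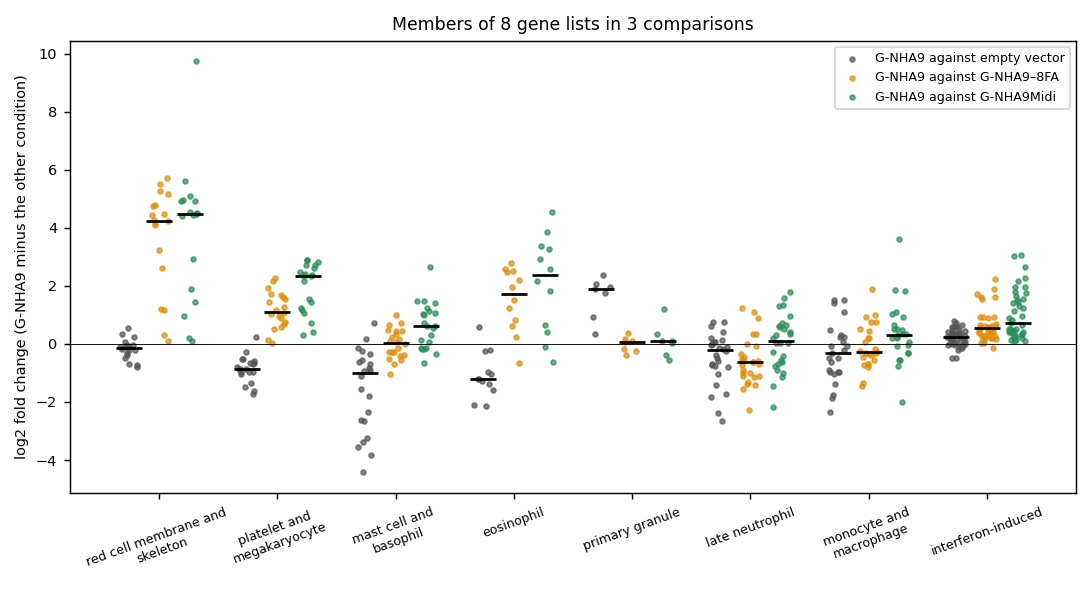
Log2 fold change of each tested member of 8 gene lists in G-NHA9 against empty vector, G-NHA9–8FA and G-NHA9Midi, with a line at the median. Red cell membrane genes lie around 0 against the empty vector (median -0.14) and mostly above 2 against the 2 constructs, while mast cell and basophil genes lie mostly below 0 against the empty vector (median -1.01). The point at 9.74 is Cldn13, whose fitted value against G-NHA9Midi libraries near 0 CPM is no measure of size.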

How the data were processed

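Stranded total RNA libraries were sequenced in pairs of reads. Per the submitters' processing notes, reads were handled with STAR 2.7.0d and HTSeq 0.11.2 on mm10, and DESeq2 was used. The authors deposited whole-number read counts for 49671 genes without normalization. The strand setting and the annotation used for counting were not given in the sources used here. All rows named a gene.

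edgeR 4.0.16, which builds on limma 3.58.1, was run under R 4.3.3. Its filterByExpr function kept 17166 genes and 99.96% of the counts. A quasi-likelihood model with TMM scaling and a mean for each of 7 conditions was fitted to all 35 libraries, which share 1 estimate of the spread, with Benjamini-Hochberg adjustment over all genes (threshold 0.05). DESeq2 1.42.0 was an alternative. Log2 CPM had a prior count of 2. Depth per library gave 3 counts as the limit that a count of 0 allows, and such limits cover counting error only. The procedure was tested on simulated data. These had libraries drawn independently, so the test does not cover the shared deviations of libraries of the same number given below. Figures were drawn in Python 3.11.15.

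The 48 gene lists, the comparisons and the rule for named genes were chosen with earlier results of these data known. Named were the 15 genes raised most and the 15 lowered most out of all genes called that averaged 5 CPM or more without overlap between conditions, outside the *Hox* clusters, *Meis1*, *Pbx3*, ribosomal protein genes and unnamed gene models, and then the members of each list with the largest changes at a mean of at least 1 CPM, beside other members given with their values. Promoters were shown for the 2 most raised and the 2 most lowered of these. Sequences came from RefSeq (GRCm38.p6) and gene positions from GENCODE M21. Libraries of the same number deviated together from their condition means (correlations of 0.350, 0.242, 0.278, 0.345 and 0.491, each above 0.1). Empty vector replicates 1, 4 and 5 correlated best with the G-NHA9 library of their own number. Empty vector replicate 2 correlated best with G-NHA9 replicate 3, and replicate 3 with G-NHA9 replicate 2. The pairing by number is therefore uncertain for replicates 2 and 3. What the numbers stand for was not given, and a fit that blocked on them was an alternative. Other alternatives were no TMM, RLE size factors, genes left unfiltered or filtered at an average of 1 CPM, the 2 conditions alone, a covariate for sex-linked transcripts, the libraries labelled 8 weeks, leaving out each library, and motifs on the forward strand only. Reads were not recounted. Conditions other than those named entered only the filter on low counts, the TMM scaling and the estimate of the spread. Some members of the lists are not reported here.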

Additional observations from a re-analysis of the deposited data

Results flagged for a closer look

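In 94 groups of 5 values, 7 had a library whose gap to its nearest neighbour exceeded 0.71 of the group's range, Dixon's 95% limit. Chance gives about 1 in 20 such groups. *Crisp3* in empty vector replicate 1 was the highest control (1.75 CPM, nearest 0.139 CPM, ratio 0.937). *Mefv* was highest in empty vector replicate 4 (1.53 CPM, nearest 0.936 CPM, ratio 0.725). *Arnt2* was highest in G-NHA9 replicate 3 (2.58 CPM, nearest 1.56 CPM, ratio 0.927). *Mt2* was highest in G-NHA9 replicate 4 (89.4 CPM, nearest 63.0 CPM, ratio 0.818). *Eya1* was highest in G-NHA9 replicate 1, from the oldest mice of the 10 libraries (45.0 CPM, nearest 32.0 CPM, ratio 0.755). *Tpsb2* was lowest in G-NHA9 replicate 2 (29.1 CPM, nearest 35.5 CPM, ratio 0.739). Total counts were highest in G-NHA9 replicate 2 (45464263, nearest 37301940, ratio 0.754). None of these libraries reached the other condition's range for the gene named.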

How the results depend on the processing

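All 30 named genes kept their direction and call in every alternative, and the number changed ran from 4434 in a model of the 2 conditions to 6895 with the replicate number as a block, with 5826 by DESeq2. Without TMM 5007 genes were higher and 1636 lower, and the lower members numbered 0 for heme synthesis, 5 for platelets and 5 for homeobox genes. Heme synthesis had 1 lower member with no filter, in the 2 conditions alone and in the libraries of 8 weeks. The red cell membrane list had 1 changed member with the replicate number as a block in all 7 conditions or in the 2, with the sex-linked covariate, and at 8 weeks. Platelet genes were lower in 14 with the replicate block in 7 conditions, 16 with it in the 2, and 4 at 8 weeks, where mitosis had 19 higher. With the replicate block 3952 genes differed from G-NHA9–8FA. Among 756 called members and named genes, the block in all 7 conditions lost *Atp7b* alone.

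Leaving out 1 library in turn gave 4930 to 5499 changed genes, 2495 to 2875 higher and 2244 to 2709 lower. Ranges were 16 to 36 for mitosis, 5 to 14 for platelets, 1 to 3 for heme synthesis and 0 to 1 for red cell membrane genes. Against G-NHA9–8FA 1556 to 2827 genes differed and against G-NHA9Midi 2517 to 3709; these leave-one-out runs of both constructs were chosen after seeing the data. Why counts moved was not tested. Motif shares on the forward strand were lower for 4 of the 5 motifs, for example 0.894%, 0.523% and 1.34% of all, higher and lower promoters for HOX with PBX. Depth limits genes near the CPM of 3 counts, and the reads behind near-identical copies could not be told apart.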
